A study of Mus musculus with 28 samples.

Results

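The genes of blood coagulation and fibrinolysis were followed in 14 pairs of liver tumour and surrounding liver tissue. The 34 genes were taken by symbol from a table of 18182 genes. They were read in 2 groups: 25 factors made by hepatocytes, and 9 genes of endothelial cells and of fibrinolysis. F3, the gene of tissue factor, starts coagulation and was counted with the 9, though their name does not describe it. All 34 passed the filter on low counts that left 14117 genes for testing. RNA sequencing covered 28 libraries from mice labelled as c-Myc/Alb-cre transgenic, in which Cre recombinase is driven by the albumin promoter and thus acts in hepatocytes. Every library carries that genotype, so a liver without the transgene is not part of the comparison. Titles name 11 tumour (Tu_F) and 11 peritumour (Pe_F) libraries with the letter F, and 3 of each (Tu_M, Pe_M) with the letter M. The labels do not spell out F and M and give no age. A sample code joins each tumour library to 1 peritumour library and was taken as the animal. Codes come in 2 styles: the first covers F replicates 1 to 3 and all M pairs (6 pairs), the second F replicates 4 to 11 (8 pairs).

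Coagulation is a cascade of plasma proteases, most of them secreted by hepatocytes as inactive precursors, that ends in thrombin cutting fibrinogen to fibrin. Tissue factor with factor VII starts the cascade, factors VIII and IX with factors V and X amplify it, and antithrombin, the protein C system and tissue factor pathway inhibitor restrain it. Fibrinolysis removes fibrin again through plasmin, which the tissue-type and urokinase-type activators release from plasminogen. Hepatocytes make nearly all of the circulating factors, whereas factor VIII and von Willebrand factor come mainly from endothelial cells.

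Totals ran from 14777567 to 17576921 estimated counts per library. Tumour was compared with its own peritumour tissue with edgeR's quasi-likelihood test, with the animal as a block and Benjamini-Hochberg adjustment over all 14117 genes. That test called 789 genes higher and 835 lower in tumour at an adjusted p under 0.05, or 11.5% of the genes tested. Scaling by library size alone gave 1151 higher and 677 lower. The summed level of 12 hepatocyte markers ran from 22694 to 65776 CPM (estimated counts per 1000000 of the library total) in peritumour tissue and from 24353 to 53345 CPM in tumour, and was lower in tumour in 13 of 14 pairs. Of these markers 6 were lower and 0 higher. Alb, which encodes albumin, was lower by the test (log2 fold change -0.50 ± 0.15 SE, adjusted p = 0.046, edgeR), from 26510 to 19298 CPM. Hnf4a, a transcription factor that defines hepatocytes, had a log2 fold change of 0.00 ± 0.11 SE (adjusted p = 0.997, edgeR). In these bulk samples, fewer cells of a type and less RNA per cell cannot be told apart.

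Among the 34 genes, F5, F9 and F8 were lower and Plaur was higher in tumour. F5 encodes factor V, F9 factor IX, F8 factor VIII and Plaur the urokinase receptor. The other 30 did not pass. The 4 calls stand beside 11.5% called over all genes tested, so their number is near the background and is no property of the set. Counts from this fit given below for roles and lists of genes stand beside the same share. At an unadjusted p under 0.05 there were 9 of 34, beside 28.1% of all genes. Without the animal as a block, edgeR called 0 of the 34 at the adjusted threshold, and the same fit called 1.05% of all genes. The adjusted p without the block was 0.101 for F5, 0.202 for F9, 0.0658 for F8 and 0.102 for Plaur. DESeq2 with the block called 6, these 4 with F13b and Hrg, beside 16.9% of all genes.

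The promoters of the 4 called genes and of the fibrinogen genes Fga and Fgb are printed next. They set the called genes beside abundant ones, which did not pass, in their short motifs. The promoter of Fgg, the remaining fibrinogen gene, is not printed. Each is the RefSeq sequence on GRCm38.p6 of 250 bases before to 50 bases after a transcript start, 5′ to 3′ on the strand of the gene. Capitals mark matches, on either strand, to TTGCNNAA, a C/EBP binding motif, or to GTTAAT, an HNF1 half-site.
F9, chrX:59999214-59999513, plus strand: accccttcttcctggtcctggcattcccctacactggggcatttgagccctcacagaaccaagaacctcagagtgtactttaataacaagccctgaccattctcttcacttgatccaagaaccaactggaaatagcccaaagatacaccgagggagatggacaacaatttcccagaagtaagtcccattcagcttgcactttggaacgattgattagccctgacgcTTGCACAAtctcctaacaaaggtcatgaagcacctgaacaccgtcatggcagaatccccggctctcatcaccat
F5, chr1:164151585-164151884, plus strand: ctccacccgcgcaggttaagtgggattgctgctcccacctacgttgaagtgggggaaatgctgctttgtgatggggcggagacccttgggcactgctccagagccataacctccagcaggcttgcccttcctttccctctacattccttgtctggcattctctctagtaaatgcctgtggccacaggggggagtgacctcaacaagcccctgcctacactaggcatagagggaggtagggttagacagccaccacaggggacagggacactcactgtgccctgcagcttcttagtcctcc
F8, chrX:75379992-75380291, minus strand: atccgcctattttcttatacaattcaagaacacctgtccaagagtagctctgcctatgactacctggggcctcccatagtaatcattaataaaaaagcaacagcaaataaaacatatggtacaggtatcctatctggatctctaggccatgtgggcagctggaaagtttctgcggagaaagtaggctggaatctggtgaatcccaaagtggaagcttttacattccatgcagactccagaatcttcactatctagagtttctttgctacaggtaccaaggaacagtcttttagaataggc
Plaur, chr7:24462233-24462532, plus strand: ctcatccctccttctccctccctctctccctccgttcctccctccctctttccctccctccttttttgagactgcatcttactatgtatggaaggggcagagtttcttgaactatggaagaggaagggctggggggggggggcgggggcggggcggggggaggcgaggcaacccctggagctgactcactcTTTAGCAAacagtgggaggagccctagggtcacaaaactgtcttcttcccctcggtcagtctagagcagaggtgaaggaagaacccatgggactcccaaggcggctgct
Fga, chr3:83025903-83026202, plus strand: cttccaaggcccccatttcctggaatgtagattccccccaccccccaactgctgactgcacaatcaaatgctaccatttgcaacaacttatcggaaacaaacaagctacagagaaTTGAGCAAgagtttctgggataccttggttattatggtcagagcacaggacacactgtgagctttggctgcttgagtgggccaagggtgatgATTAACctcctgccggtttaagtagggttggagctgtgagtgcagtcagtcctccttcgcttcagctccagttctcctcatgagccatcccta
Fgb, chr3:83049814-83050113, minus strand: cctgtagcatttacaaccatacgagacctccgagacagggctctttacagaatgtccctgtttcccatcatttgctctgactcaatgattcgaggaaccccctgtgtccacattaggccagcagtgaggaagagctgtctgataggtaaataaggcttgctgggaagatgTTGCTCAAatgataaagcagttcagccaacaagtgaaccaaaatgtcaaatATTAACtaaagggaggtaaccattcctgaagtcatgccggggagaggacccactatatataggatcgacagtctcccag

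Of the 34 genes, 27 had a promoter in the RefSeq table, and Tfpi had 2. Plg, Thbd, Proc, Plau, Plat, Vwf and Kng1 are named only. The start used for F8 lies 2697 bases inside the RefSeq gene, that for Plaur 1546 bases and that for F9 135 bases, so other starts of these genes are not shown. TTGCNNAA was found in 10 of 22 hepatocyte-made factors and in 2 of 5 endothelial and fibrinolytic genes, against 10.8% of all 32851 promoters of that length. In F9 the match begins 24 bases before the start and in Plaur 59 bases before it. GTTAAT was found in 7 of 22 hepatocyte-made factors (F2, F13b, Fga, Fgb, Proz, Habp2 and Vtn) and in 0 of 5 of the others, against 7.1% of all promoters. Of these, Habp2, Proz and F13b have starts 803, 324 and 160 bases inside the RefSeq gene. The median share of G and C was 48.8% in hepatocyte-made factors, 55.3% in the others and 52.7% in all promoters. Its part in the motif counts was not tested. Fgb and Fga hold both motifs. GTTAAT begins 29 bases before the start in Fgb and 43 bases before it in Fga. The windows of F5, F8 and Fgg hold neither string. CAAAGTCC, an HNF4 core, was in none of the 27 and in 1.42% of all promoters. TATAAA was in 3 of 22 and 2 of 5, against 13.6%, and CACGTG, the E-box that Myc binds among other factors, was in 0 of 22 and in 1 of 5 (Tfpi), against 7.15%. Matches to different motifs did not overlap in any of the 27. A match describes the letters only.

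Levels are compared between genes in deposited TPM, which is scaled by transcript length. Fibrinogen led: the median over 14 peritumour libraries was 3030 TPM for Fgb, 2710 TPM for Fgg and 2394 TPM for Fga, the 3 chains of the protein. In tumour the medians were 2750, 2133 and 2222 TPM. The 3 fibrinogen genes together held a median of 42.4% of the TPM sum of all 34 genes in peritumour tissue (range 35.8% to 56.3%) and 41.0% in tumour (28.7% to 55.3%). Next came Vtn, which encodes the adhesive plasma protein vitronectin (1856 TPM in peritumour tissue), Kng1, a kininogen (1590 TPM), and Serpinc1, which encodes antithrombin (1587 TPM). The lowest hepatocyte-made factor was F11, at 11.6 TPM. The 9 endothelial and fibrinolytic genes lay below it, from 1.86 TPM for F8 to 6.05 TPM for Tfpi in peritumour tissue and from 0.860 TPM for F8 to 7.90 TPM for Plaur in tumour.

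**Figure D1:**
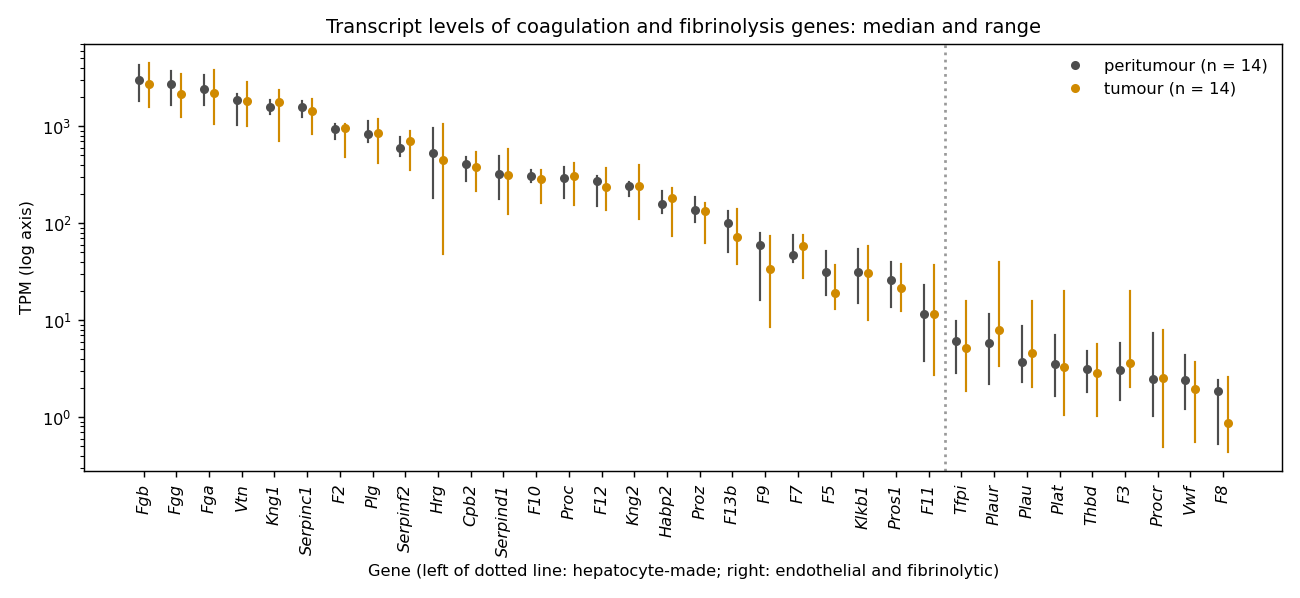
Median (point) and range (line) of deposited TPM over 14 peritumour and 14 tumour libraries for each of the 34 genes, on a log axis. In both tissues every hepatocyte-made median, down to F11 at 11.6 TPM in peritumour tissue, lies above every endothelial and fibrinolytic median.

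The question put to the 2 groups was whether the liver's own factors and the endothelial and fibrinolytic genes moved alike. Of the 25 hepatocyte-made factors 0 were higher and 2 lower, with 19 below 0 and a median log2 fold change of -0.16. Of the 9 others 1 was higher and 1 lower, with 5 below 0 and a median of -0.11. Over all genes tested 5.59% were higher, 5.91% were lower and the median was -0.01. The difference between the 2 groups was not tested. Without F replicate 2 the median was -0.07 for the hepatocyte-made factors and -0.16 for the others. The 2 groups also had intervals of unlike width, a difference that was not tested. The 95% interval of the mean pair difference lay within -0.5 to 0.5 on the log2 scale for 19 of the 25 hepatocyte-made factors and for 0 of the 9 others. The groups also differ in level: all 25 had a median of at least 10 CPM in tumour or peritumour tissue, against 1 of the 9. Intervals were not counted over all genes tested.

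**Figure D2:**
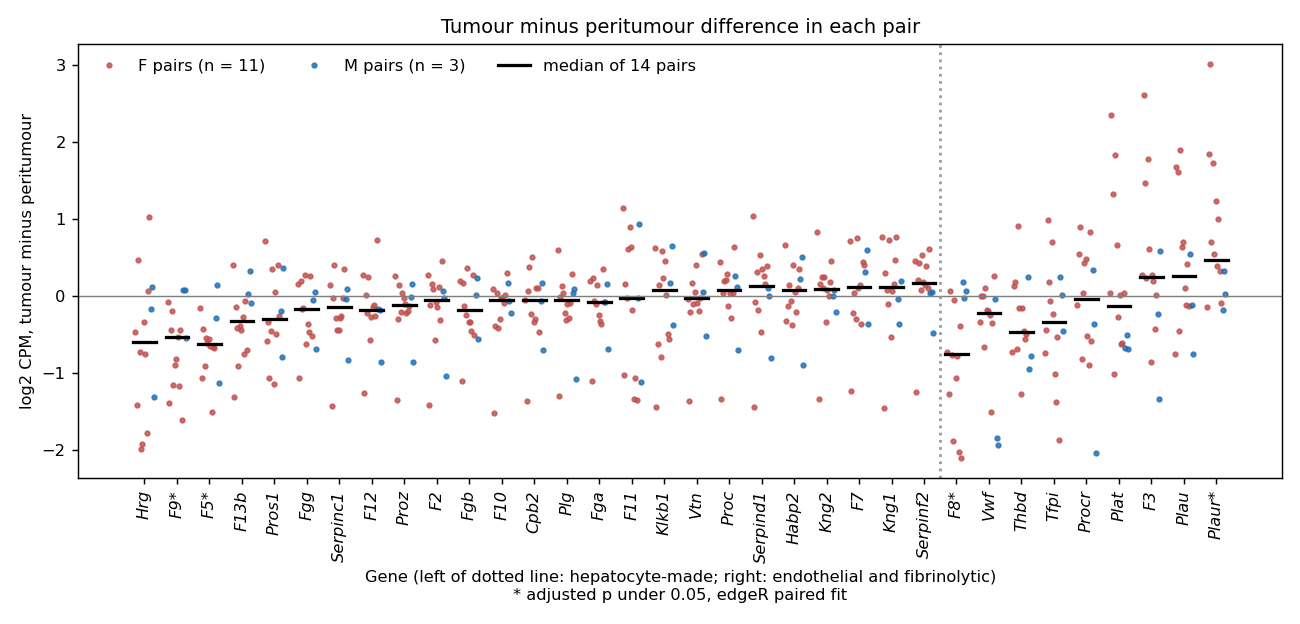
Difference in log2 CPM, tumour minus peritumour, in each of 14 pairs (points; 11 F pairs, 3 M pairs) with the median (bar) for 34 genes, ordered by fold change within each group. Differences of hepatocyte-made factors lie mostly near 0, with F replicate 2 and M replicate 3 low, whereas F3, Plat, Plau and Plaur reach up to 3.02.

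Factor V, the cofactor with which factor Xa makes thrombin, was lower in tumour in 13 of 14 pairs. In the 11 F animals F5 ran from 83.1 to 234 CPM in peritumour tissue (median 142) and from 58.0 to 166 CPM in tumour (median 83.7). In the M animals it went from 208 to 170 CPM in replicate 1, from 151 to 171 CPM in replicate 2 and from 133 to 64.9 CPM in replicate 3. The 2 tissues overlapped, with 6 of 14 tumours below every peritumour library. Within pairs, M replicate 2 was the exception. The log2 fold change was -0.65 ± 0.11 SE, a ratio of 0.638 (adjusted p = 0.00226, edgeR), and the call held with each pair left out in turn (adjusted p 0.00141 to 0.00711). F5 lies on chromosome 1 at 164151835 to 164220277 (gene ID 14067, GRCm38).

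Factor IX, the vitamin K-dependent protease that is missing in hemophilia B, was lower in 12 of 14 pairs. Among F animals F9 ran from 26.2 to 129 CPM in peritumour tissue (median 82.9) and from 14.5 to 98.6 CPM in tumour (median 39.7). All 11 F pairs were lower in tumour. M replicates 1 and 2 went from 107 to 113 CPM and from 110 to 119 CPM, while M replicate 3 went from 101 to 73.9 CPM. The log2 fold change was -0.65 ± 0.13 SE (ratio 0.638, adjusted p = 0.0078, edgeR). This call also held with each pair left out (adjusted p 0.00506 to 0.0197). F9 lies on chromosome X at 59999464 to 60030760 (gene ID 14071).

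Factor VIII, the cofactor of factor IX and the protein missing in hemophilia A, was lower in 11 of 14 pairs. F8 ran from 2.85 to 13.8 CPM in F peritumour tissue (median 9.38) and from 2.10 to 11.1 CPM in F tumours (median 3.47). It was lower in 10 of 11 F pairs, F replicate 3 being the other (10.1 to 11.1 CPM). M replicate 1 went from 12.4 to 14.04 CPM, M replicate 2 from 11.1 to 11.0 CPM and M replicate 3 from 7.53 to 8.45 CPM. The log2 fold change over all pairs was -0.77 ± 0.21 SE, a ratio of 0.586 (adjusted p = 0.0254, edgeR). Without F replicate 7 or F replicate 9 the adjusted p passed 0.05, reaching at most 0.0533. F8 lies on chromosome X at 75170344 to 75383525 (gene ID 14069). Its RefSeq span shares 340 bases with Fundc2 and holds 2 pseudogenes, Gm6039 and Gm8522, and reads there cannot be told apart without strand. The same limit holds for other members. F2 shares 8283 bases with Ckap5 and Serpind1 shares 12204 bases with Pi4ka. F11, Klkb1 and Cpb2 share from 21397 to 28148 bases with genes of long noncoding RNA.

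F5, F8 and F9 were all lower in the same 10 pairs, each of them an F pair. F8 was counted here among endothelial genes. Of 8 sinusoidal endothelial markers 3 were lower and 0 higher. Their sum ran from 176 to 393 CPM in peritumour tissue and from 106 to 292 CPM in tumour, and was lower in 12 of 14 pairs. Clec4g, a sinusoidal lectin, was lower (log2 fold change -0.83 ± 0.17 SE, adjusted p = 0.00786, edgeR), whereas Stab1, a scavenger receptor of the same cells, had 0.05 ± 0.12 SE. Of 9 vascular endothelial markers 2 were lower (Tek and Ptprb) and the sum was 199 to 409 CPM against 185 to 373 CPM. No marker of either list had a median of 0 CPM. The part of these markers in the F8 result was not tested.

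**Figure D3:**
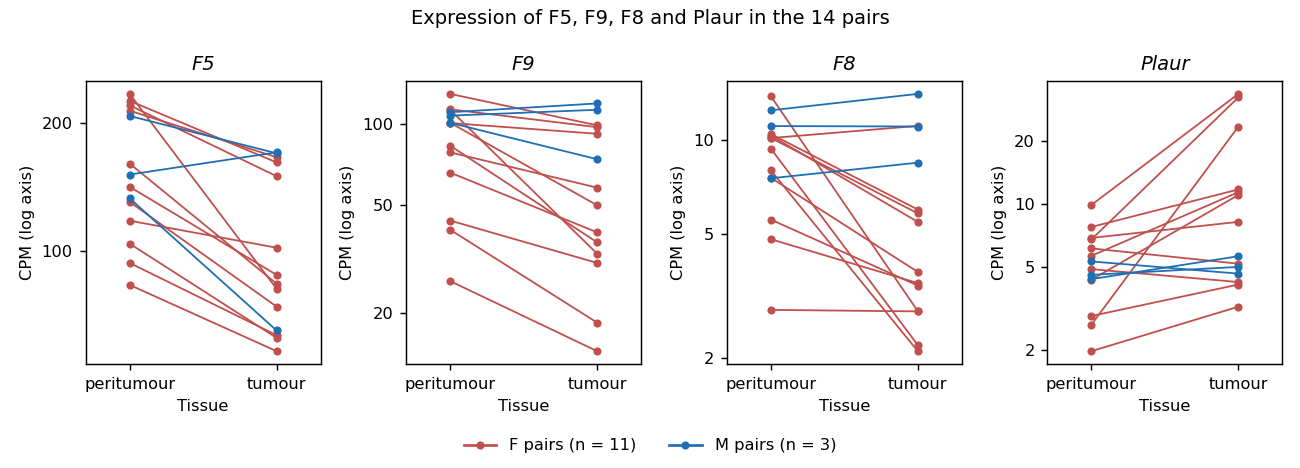
CPM of F5, F9, F8 and Plaur in peritumour and tumour tissue, on log axes, with a line for each of 14 pairs (11 F, 3 M). F5 and F9 go down in 13 and 12 pairs, F8 goes down in 10 of 11 F pairs and 1 of 3 M pairs, and Plaur goes up in 11 pairs, most in 3 F pairs.

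The rest of the amplification steps did not pass. F2, which encodes prothrombin, averaged 1126 ± 106 CPM in peritumour tissue and 1040 ± 235 CPM in tumour (SD, n = 14 each), with a log2 fold change of -0.18 ± 0.13 SE. F10, the gene of factor X, had -0.17 ± 0.11 SE, and F7, the gene of the protease that tissue factor binds, had 0.08 ± 0.13 SE. Their adjusted p ran from 0.33 to 0.741 (edgeR). Vwf encodes von Willebrand factor, the carrier of factor VIII in plasma. It ran from 6.67 to 23.7 CPM (median 13.1) in peritumour tissue and from 3.26 to 21.4 CPM (median 10.7) in tumour. Its log2 fold change of -0.48 ± 0.18 SE missed the threshold (adjusted p = 0.0943, edgeR). The widest Vwf differences were in M replicate 3 (12.0 to 3.26 CPM), M replicate 2 (16.6 to 4.59 CPM) and F replicate 9 (15.8 to 5.46 CPM).

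F3, which encodes tissue factor, the membrane protein that starts coagulation, did not pass (0.36 ± 0.27 SE, adjusted p = 0.393, edgeR), yet it spread more over pairs than any other of the 34 genes (SD of the pair differences 1.04). It ran from 1.62 to 6.20 CPM in peritumour tissue and from 2.42 to 21.2 CPM in tumour. The widest differences were in F replicate 2 (2.53 to 21.2 CPM), F replicate 3 (3.03 to 8.97 CPM) and F replicate 5 (1.62 to 6.00 CPM).

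The contact system starts coagulation on charged surfaces and releases bradykinin from kininogen. None of its 5 genes passed, beside 11.5% of all genes tested. F12, which encodes factor XII, had -0.20 ± 0.12 SE and was lower in 10 of 14 pairs. Klkb1, the gene of prekallikrein, had -0.10 ± 0.15 SE. The kininogen genes Kng1 and Kng2 had 0.08 ± 0.15 SE and 0.04 ± 0.12 SE. These are close copies, so reads shared between them may be split unevenly. F11, which encodes factor XI, was the most variable hepatocyte-made factor, with a coefficient of variation (CV) of 42.7% in peritumour tissue and 67.5% in tumour. It went up from 15.2 to 32.3 CPM in F replicate 1 and down from 27.6 to 9.70 CPM in F replicate 11. Its log2 fold change was -0.11 ± 0.22 SE, and adjusted p in the contact system ran from 0.294 to 0.868 (edgeR).

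Genes of fibrin and its cross-linking all had values below 0 and none passed. Fga had -0.14 ± 0.11 SE, Fgb -0.18 ± 0.11 SE and Fgg -0.23 ± 0.11 SE (adjusted p 0.391, 0.301 and 0.172, edgeR). The 95% interval of the mean pair difference was -0.37 to 0.08 for Fga, -0.42 to 0.06 for Fgb and -0.47 to 0.00 for Fgg. The chains had similar shares of the fibrinogen TPM sum. Fgb held a median of 38.8% in peritumour tissue and 37.8% in tumour, Fgg 31.8% and 30.6%, and Fga 28.7% and 29.6%. F13b encodes the carrier subunit of factor XIII, which cross-links fibrin. It went from a mean of 138 to 116 CPM and was lower in 11 of 14 pairs, just short of the threshold (-0.34 ± 0.12 SE, adjusted p = 0.0695, edgeR). F13b did pass without F replicate 1 or M replicate 2 (lowest adjusted p 0.0406).

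Anticoagulant genes were 0 higher and 0 lower out of 8, beside 11.5% of all genes called in either direction. Antithrombin inhibits thrombin and factor Xa, and its gene Serpinc1 went from 1517 ± 162 to 1366 ± 322 CPM (SD, n = 14 each; -0.22 ± 0.12 SE). Serpind1, the gene of heparin cofactor II, had 0.02 ± 0.15 SE. Of the protein C pathway, Proc, the gene of the zymogen, had -0.01 ± 0.12 SE, and Pros1, the gene of its cofactor protein S, had -0.25 ± 0.14 SE. Thbd, which encodes thrombomodulin, the endothelial receptor that turns thrombin toward protein C, had -0.35 ± 0.16 SE, and Procr, the endothelial protein C receptor, had -0.11 ± 0.23 SE. Thbd ran from 4.20 to 11.2 CPM in peritumour tissue and from 2.38 to 12.3 CPM in tumour, and was lower in 10 of 14 pairs. Procr was the lowest of all by counts, with medians of 2.08 and 2.16 CPM, and its lowest pair difference was in M replicate 3 (2.05 to 0.448 CPM). Tfpi, the inhibitor of tissue factor with factor VIIa, had -0.32 ± 0.20 SE. Proz, the cofactor of an inhibitor of factor Xa, had -0.20 ± 0.11 SE. Adjusted p in this group ran from 0.153 for Thbd to 0.964 for Proc (edgeR).

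Fibrinolysis held the only higher call. Plaur, the receptor that holds urokinase at the cell surface, ran from 1.98 to 9.87 CPM in F peritumour tissue (median 5.64) and from 3.22 to 33.5 CPM in F tumours (median 11.0). In M animals it went from 5.30 to 4.64 CPM, from 4.37 to 5.61 CPM and from 4.58 to 4.99 CPM. It was higher in 11 of 14 pairs, and 6 of 14 tumours lay above every peritumour library. The 3 highest tumours were F replicate 5 (9.87 to 33.5 CPM), F replicate 2 (6.75 to 32.2 CPM) and F replicate 3 (2.65 to 23.4 CPM). The log2 fold change was 0.77 ± 0.23 SE, a ratio of 1.70 (adjusted p = 0.0411, edgeR). This call is close to the threshold: it was lost when any of F replicates 2, 4, 5, 6, 7, 8 and 9 or M replicate 2 was left out, with adjusted p up to 0.0805. Plaur lies on chromosome 7 at 24460937 to 24475968 (gene ID 18793).

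The plasminogen activators followed a similar pattern over animals without passing. Plau, which encodes urokinase, ran from 3.11 to 11.9 CPM in peritumour tissue and from 2.91 to 20.9 CPM in tumour (0.38 ± 0.22 SE, adjusted p = 0.273, edgeR). Plat, which encodes the tissue-type activator, ran from 2.65 to 10.5 CPM and from 1.73 to 29.3 CPM (0.12 ± 0.26 SE, adjusted p = 0.8, edgeR). Both were highest in the tumours of F replicates 2, 3 and 5. In F replicate 2 Plat went from 4.29 to 29.3 CPM and Plau from 4.94 to 20.9 CPM. In F replicate 5 Plat went from 4.61 to 17.1 CPM and Plau from 4.09 to 15.9 CPM. F3, Plat, Plau and Plaur thus had their 3 highest differences in the same 3 pairs, a description chosen after the values were seen.

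Other cells' markers also stood out in some of those tumours. The sum of 7 cholangiocyte markers ran from 59.5 to 344 CPM in peritumour tissue and from 56.6 to 2025 CPM in tumour. It went from 157 to 2025 CPM in F replicate 2, from 222 to 252 CPM in F replicate 3 and from 59.5 to 177 CPM in F replicate 5. Over all pairs, however, the cholangiocyte sum was lower in tumour in 10. Of these 7 markers 1 was higher and 0 lower over all pairs, with 5 below 0 and a median log2 fold change of -0.34. The sum of 8 monocyte and macrophage markers ran from 249 to 583 CPM in peritumour tissue and from 154 to 1075 CPM in tumour. In the same 3 pairs it went from 399 to 1075, from 380 to 562 and from 418 to 502 CPM, with 0 of the 8 called in either direction. This sum was lower in tumour in 9 pairs, and 7 of the 8 markers had a log2 fold change below 0. The sum of 10 stellate cell and fibroblast markers ran from 426 to 1461 CPM and from 222 to 1866 CPM, and went from 611 to 1626, from 975.5 to 1250 and from 650 to 1866 CPM in the 3 pairs. Over all pairs 1 of the 10 was higher (Acta2) and 4 were lower, with 9 below 0. The stellate cell and fibroblast sum was lower in tumour in 11 pairs. No marker of these lists had a median of 0 CPM, and their part in the values of F3, Plat, Plau and Plaur was not tested. F replicates 2, 5 and 6 also had the highest sums of granulocyte precursor markers in peritumour tissue (82.2, 81.2 and 55.0 CPM). Without these 3 pairs 3 of the 34 passed, F5, F9 and Thbd, beside 14.9% of all genes. Plaur then had 0.59 ± 0.25 SE (adjusted p = 0.12, edgeR) and F8 -0.67 ± 0.22 SE (adjusted p = 0.0517, edgeR), while Thbd had -0.52 ± 0.14 SE (adjusted p = 0.0307, edgeR).

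The hepatocyte-made side of fibrinolysis did not pass. Plg, the gene of plasminogen, went from a mean of 1451 to 1373 CPM (-0.16 ± 0.13 SE). Serpinf2, which encodes the main plasmin inhibitor, was higher in 12 of 14 pairs, and 6 of 14 tumours lay above every peritumour library, but its log2 fold change was only 0.11 ± 0.12 SE (adjusted p = 0.579, edgeR). The 2 pairs with a lower tumour value were F replicate 2 (807 to 442 CPM) and M replicate 3 (668 to 515 CPM). Cpb2, the gene of a carboxypeptidase that protects fibrin, had -0.16 ± 0.12 SE. Hrg encodes histidine-rich glycoprotein, which binds plasminogen and heparin. It had the widest pair differences of the hepatocyte-made factors, from 181 to 46.1 CPM in F replicate 5 up to 661 to 1218 CPM in F replicate 11. Hrg was lower in 10 of 14 pairs at -0.66 ± 0.23 SE, which missed the threshold (adjusted p = 0.0677, edgeR) and passed in DESeq2 (adjusted p = 0.0157). Hrg also passed in limma-voom (adjusted p = 0.0457) and in edgeR without F replicate 3 or F replicate 11 (lowest adjusted p 0.0316). Habp2, a plasma protease that binds hyaluronan, had 0.03 ± 0.11 SE, and Vtn had -0.05 ± 0.12 SE.

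Tumours differed more from each other than peritumour tissues did. The CV over 14 libraries was higher in tumour than in peritumour tissue for all 25 hepatocyte-made factors and all 9 others. Among the hepatocyte-made factors the median CV was 18.0% in peritumour tissue and 28.9% in tumour. The most even was F2, at 9.38% in peritumour tissue and 22.6% in tumour. Among the 9 others the median CV was 35.5% and 64.9%, with the highest tumour value, 95.5%, in Plat. These 9 genes are also the less abundant, so counting error takes a larger part of their spread. No test was made of the difference in CV. The CV was not computed over all genes tested, so the higher CV in tumour is not shown to be particular to these genes.

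**Figure D4:**
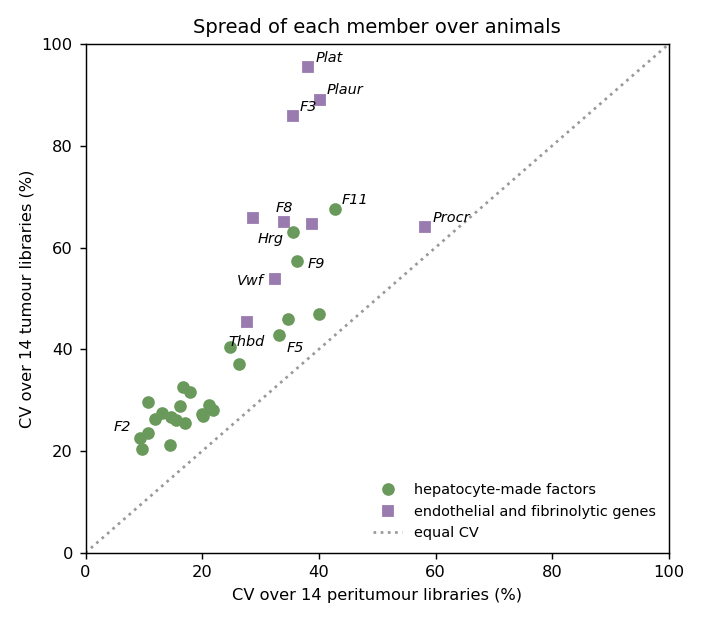
CV over 14 tumour libraries against CV over 14 peritumour libraries, in percent, for 25 hepatocyte-made factors (circles) and 9 endothelial and fibrinolytic genes (squares), with the line of equal CV. All 34 points lie above the line.

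A single pair stood apart among the hepatocyte-made factors. In F replicate 2 all 25 hepatocyte-made factors were lower in tumour by TMM-scaled log2 CPM, with a median difference of -1.35. This pair gave the lowest difference of 19 of the 25. By CPM of the library total, which gives smaller drops in this pair, Habp2 was higher in tumour (242 to 252 CPM). F10 went from 515 to 233 CPM there, Kng1 from 1663 to 788 CPM and Serpinc1 from 1608 to 781 CPM. The 9 endothelial and fibrinolytic genes had a median difference of 0.55 in the same pair. The hepatocyte marker sum went from 52850 to 24350 CPM in F replicate 2, and its part in these values was not tested. M replicate 3 came next, with 23 of 25 lower and a median of -0.70 by the scaled values, and a marker sum of 50780 and 32770 CPM. In the other 12 pairs the hepatocyte-made median lay between -0.31 and 0.30. The group medians were below 0 in 7 pairs for the hepatocyte-made factors and in 9 for the others, and had opposite signs in 8 of 14 pairs.

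**Figure D5:**
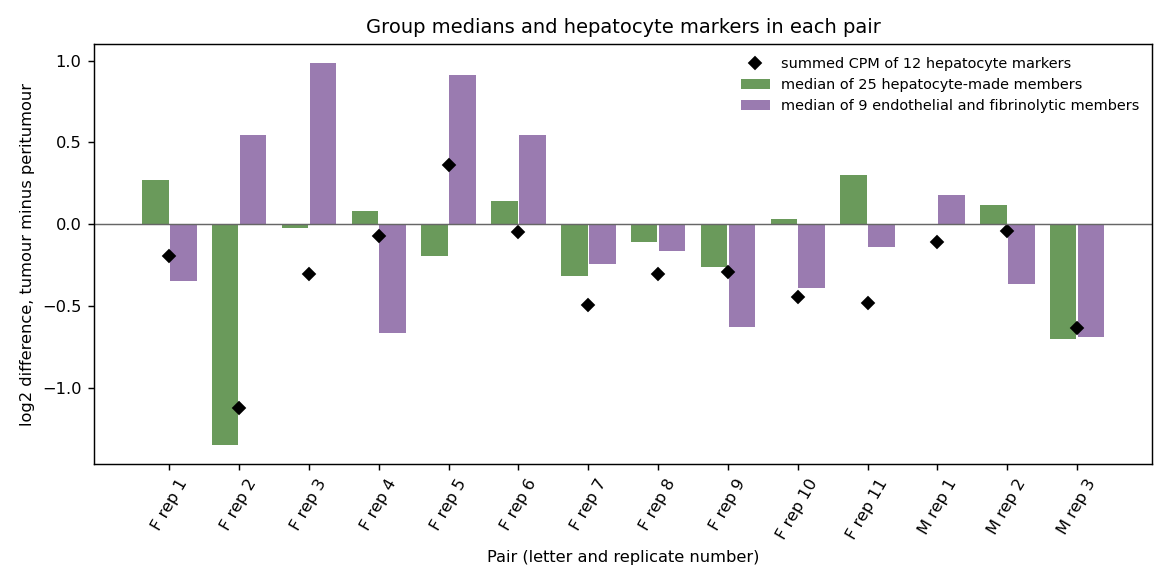
Median log2 difference, tumour minus peritumour, of 25 hepatocyte-made and 9 endothelial and fibrinolytic genes in each of 14 pairs (bars), with the log2 ratio of the summed CPM of 12 hepatocyte markers (diamonds). Bars use TMM-scaled log2 CPM and diamonds CPM of the library total, so their heights cannot be compared directly. F replicate 2 stands lowest for the hepatocyte-made genes, at -1.35, beside 0.55 for the others.

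Several of the genes lie next to each other, and neighbours did not always share a result. Fgg, Fga and Fgb lie within chromosome 3 from 83007724 to 83049863 and had values from -0.23 to -0.14. F7, F10 and Proz lie on chromosome 8 from 13025506 to 13075006, with values of 0.08, -0.17 and -0.20. F11 and Klkb1 follow each other on the same chromosome from 45240659 to 45294835, at -0.11 and -0.10. Hrg, Kng2 and Kng1 lie on chromosome 16 from 22951072 to 23082078. There Hrg had -0.66 while the kininogen genes had 0.04 and 0.08. The vitamin K-dependent proteins, F2, F7, F9, F10, Proc, Pros1 and Proz, share a carboxylation step in the hepatocyte. F9 was the 1 of these 7 that passed, beside 11.5% of all genes tested.

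Whether the tumour difference depended on the letter was asked with an interaction term. It called 0 of the 34 genes and 0 of all genes, and 3 of 34 had an unadjusted p under 0.05 beside 7.09% of all genes. These were F8 (M minus F difference 1.09 ± 0.42 SE), F9 (0.67 ± 0.29 SE) and Vwf (-1.01 ± 0.39 SE), each with adjusted p = 0.688 (edgeR). In F pairs alone 5 of the 34 passed, the 4 named above and F13b, beside 9.6% of all genes. There F8 had -1.02 ± 0.22 SE and F9 -0.80 ± 0.14 SE. In M pairs alone, 3 animals, F8 had 0.06 ± 0.19 SE and F9 -0.14 ± 0.17 SE, with adjusted p of 0.895 and 0.741 (edgeR). The same test between code styles called 0 genes. F8 was the 1 of 34 with an unadjusted p under 0.05 (second minus first style -0.88 ± 0.37 SE, adjusted p = 0.652, edgeR), beside 7.58% of all genes. Within the first style F5, F9, F8 and Plaur had -0.48, -0.37, -0.28 and 0.80, and 0 of the 34 passed. Within the second they had -0.77, -0.85, -1.16 and 0.75, and 5 of the 34 passed, these 4 and F13b, beside 7.51% of all genes. Every M animal has the first style, so the letter and the style overlap in part.

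M and F libraries were also compared within each tissue, with code style as a covariate. In peritumour tissue 0 of 34 genes passed, beside 0.0283% of all genes, and 0 of 34 had an unadjusted p under 0.05, beside 1.52%. In tumour 0 of 34 passed, beside 0.0283%, and 4 of 34 had an unadjusted p under 0.05, beside 9.84%. The M minus F values of those 4 were 0.93 ± 0.39 SE for F8, -0.95 ± 0.45 SE for F3, -1.50 ± 0.55 SE for Plat and -1.43 ± 0.59 SE for Plaur (adjusted p 0.382 to 0.493, edgeR). Scaling by library size alone shifted the median of all genes to -0.13 in peritumour tissue and -0.11 in tumour.

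Genes around the pathway gave further values. Of 12 genes outside the 34, in a list of fibrinolysis inhibitors, receptors and related genes, 0 were higher and 2 lower. Fgl1, a fibrinogen-like protein secreted by hepatocytes, was lower in 13 of 14 pairs, from 212 to 106 CPM (-0.95 ± 0.15 SE, adjusted p = 0.00191, edgeR). Lrp1, a clearance receptor for protease complexes, had -0.29 ± 0.09 SE (adjusted p = 0.0494, edgeR). Of 8 other protease inhibitors 0 were higher and 2 lower, Tfpi2 at -0.49 ± 0.12 SE and Serping1, the inhibitor of C1 and of contact proteases, at -0.56 ± 0.15 SE. Of 9 tested genes of the vitamin K cycle and factor secretion 0 passed, and of 4 thrombin and protease-activated receptors 0 passed.

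Von Willebrand factor is cut by the protease encoded by Adamts13, which was lower in 13 of 14 pairs, from 6.55 to 4.84 CPM (-0.51 ± 0.12 SE, adjusted p = 0.0123, edgeR). It was the 1 lower gene of 5 tested in the list on von Willebrand factor handling, with 0 higher. In a list of 10 other plasma proteases, cofactors and related proteins, 3 were lower and 0 higher. These were Hgf, the hepatocyte growth factor, at -0.92 ± 0.21 SE, C4bp, a complement regulator that binds protein S, at -0.47 ± 0.12 SE, and Mst1. Mst1 (-0.37 ± 0.10 SE) was named after its value was seen, to complete the count. Of 18 transcription factors of hepatocyte genes 1 was higher and 3 were lower, Nr1i3 at -0.94 ± 0.18 SE, Prox1 at -0.35 ± 0.08 SE and Nr1h4 at -0.34 ± 0.10 SE. Nr1h4 was likewise named to complete the count. Cebpa and Cebpb, which encode factors that bind C/EBP motifs, had -0.09 ± 0.11 SE and -0.24 ± 0.13 SE, and were picked to stand beside the motif search. Neither passed.

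Platelets carry factor V and von Willebrand factor of their own. Of 11 platelet and megakaryocyte markers 0 passed, and their sum ran from 10.1 to 158 CPM in peritumour tissue and from 7.36 to 135 CPM in tumour. Its part in the F5 and Vwf values was not tested. Of 8 Kupffer cell markers 5 were lower and 0 higher, with sums of 324 to 800 CPM in peritumour tissue and 224 to 866 CPM in tumour. Of 8 neutrophil, 5 granulocyte precursor, 7 erythroid precursor and 5 mesothelial markers 0 passed in either direction.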

How the data were processed

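RNA was extracted with Trizol, poly(A) RNA was selected with oligo(dT) and cDNA was primed with random hexamers, per the labels' protocols. Whether the libraries keep strand is not stated there. Per the submitters' processing notes, RSEM 1.2.12, DESeq2 1.4.5, HISAT2 2.0.4 and Bowtie2 2.2.5 were used, with no role given. The authors deposited estimated counts (expected counts) and TPM per gene and library, per the file headers, and 8.06% of the estimated counts are not whole. Of the table, 1 line without a gene ID and 3 mean columns and 6 comparison columns of a group with no sample were not used. Coordinates are those of the table, and 92% of matched genes lie within 10000 bases of RefSeq GRCm38.p6.

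Estimated counts were rounded and tested with edgeR 4.0.16 (R 4.3.3): TMM factors (0.809 to 1.36), filterByExpr over the 4 title groups, the quasi-likelihood fit with the robust option, p-values adjusted by Benjamini-Hochberg, and a threshold of 0.05. The pairing comes from the sample code. Deviations from the means of group and code style correlated positively within all 14 pairs (0.135 to 0.61). Only 10 of the 14 tumour libraries correlated best with the peritumour library of their own pair. The biological coefficient of variation was 0.27 with the animal as a block and 0.381 without it. CPM is the estimated count per 1000000 of the library total. Pair differences and their intervals, from the t distribution, use TMM-scaled log2 CPM with a prior count of 2, so they can differ from the ratio of the CPM printed. The paired fit was tested on simulated counts with the same dispersion for every gene. The fits between letters, code styles and groups were not tested in this way. No libraries of 1 group agreed within sampling noise (lowest index of dispersion 18.3). Nothing beyond the codes says that animals were kept apart, so p-values measure the spread between these samples. In the fits with the block, this is the spread of the tumour minus peritumour differences over pairs.

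All 34 genes are named. From each list of pathway genes up to 2 higher and 2 lower genes with the smallest adjusted p were named, and from marker lists counts, sums and abundant genes. Some genes that this rule would name are not reported here. The members, the lists and the use of pairs were chosen with earlier results of these data known. Alternatives were DESeq2 1.42.0, limma-voom (limma 3.58.1), other scaling and filters, no block, subsets by letter and code style, and each pair left out.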

Additional observations from a re-analysis of the deposited data

How the results depend on the processing

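Without the replicate block, edgeR called 148 genes in place of 1624, and 0 of the 34 in place of 4. The block thus decides whether any of the 34 pass. With M pairs only 0 genes and 0 of the 34 passed, with the first code style only 0 and 0, and with the second only 981 genes. These subsets hold fewer animals. Leaving out each pair in turn gave 899 to 1957 genes and 2 to 5 of the 34. The number of genes was 992 without F replicate 7, 899 without F replicate 8 and 927 without F replicate 9. It was 2 of the 34 without F replicate 7 or 9 (F5 and F9). Tumour M against F without the code style covariate called 7 genes in place of 4. F8 changed sign with M pairs only (0.065). The cause was not tested. F5 and F9 passed under library size alone, DESeq2 size factors, DESeq2, limma-voom, both other filters and every left-out pair. No paired analysis was possible for M against F because the animals differ. Of 1381 values under alternatives where neither fit passed, 143 had another sign than the main value, and these are not counted as changes of direction. Depth limits the genes of lowest count most, such as Procr, with medians of 2.08 and 2.16 CPM.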
